A study of Mus musculus with 18 samples.

Results

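The tight junction genes described here are Cldn5, Cldn1, Cldn3, Ocln, Tjp1, F11r, Jam2, Esam and Cgn, which encode membrane and plaque proteins of the seal between neighbouring cells. They were chosen by name, as every probe set whose annotation gave exactly 1 gene symbol that was among these 9 genes. These genes and the gene lists below were chosen with earlier results of these data known. Their counts beside the shares of all probe sets or genes are therefore descriptive and no independent support. That gave 19 probe sets of 36701 on 3 chips, with 9 on chip A, 5 on chip B and 5 on chip C. All 9 genes had at least 1 probe set.

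Cells came from retinas of FVB/N mice, homozygous for a Tie2-GFP transgene, at postnatal day 8. The retinas were pooled, digested with papain and sorted into GFP-positive cells, taken as endothelium, and GFP-negative cells, taken as the control. Both populations carried the transgene, and they differed only in the sort. GFP followed the Tie2 promoter, which is active in endothelium and also in some blood-lineage cells, and the GFP-negative population was a mixture of all other retinal cells. Amplified RNA was hybridised to the Affymetrix MGU74v2 chips A, B and C, with 3 arrays for each population on each chip, 18 in all. Whether those 3 arrays stand for different animals is not in the labels, so the spread behind each p-value is that among arrays and could be purely technical.

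In a tight junction, claudins polymerise into the strands that close the gap between cells, and occludin joins them as a tetraspan MARVEL protein. Junctional adhesion molecules and ESAM, which belong to the immunoglobulin superfamily, hold the membranes together, and ZO-1 and cingulin tie the strands to actin from the cytoplasmic side. In the retina these contacts between endothelial cells form the inner blood-retina barrier, and those of the pigment epithelium form the outer one.

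The GFP label was checked first. Tek, the gene whose promoter drove GFP, read 547, 537 and 240.4 intensity units on the GFP-positive arrays of chip A and 9.48, 8.58 and 6.62 on the GFP-negative arrays. Of 14 measured endothelial markers 11 were higher in GFP-positive cells and none was lower, although Kdr, Pecam1 and Egfl7 did not pass. None of 10 pericyte and smooth muscle markers, each by 1 probe set, passed with all arrays, although Rgs5 was lower without GFP-positive replicate 3 (-0.63, adjusted p = 0.0143, limma). Over all 15 probe sets of these 10 genes 2 were lower and none was higher, where 8.86% and 7.42% of all probe sets were. Of 10 Müller glia markers 8 were lower, and no marker gene of any list was read at 0 on average. Of 6 astrocyte markers 2 fell, of 10 photoreceptor markers 2 and of 11 neuron markers 3, where 11.2% of all genes did. With 1 array left out these counts were 2, 0 to 3 and 3 to 4. The neuron gene Stmn2 was higher, at 194 ± 81.0 against 42.1 ± 5.90 (mean ± SD, n = 3 arrays each, adjusted p = 0.0135, limma). No neuron marker rose when any 1 GFP-negative array was left out. GFP-positive replicate 3 stood apart: its Spearman correlation with the other GFP-positive arrays was 0.911 to 0.929 across probe sets, against 0.960 to 0.987 for all other pairs within a population. Leaving it out raised the number of calls over all probe sets. Those higher went from 1129 to 1738 on chip A, 1191 to 1473 on B and 403 to 1559 on C. Those lower went from 1149 to 1731, 1405 to 1657 and 698 to 1417, so many probe sets gained a call in that fit. Values without it are given below for each probe set of the 9 genes whose call or sign they change.

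Expression was higher in GFP-positive cells at 11 of the 19 tight junction probe sets and lower at 1, while 7 did not pass (limma, adjusted p under 0.05). Over all probe sets of the 3 chips, 7.42% were higher and 8.86% lower, the latter share being 9.25% on chip A, 11.3% on chip B and 5.88% on chip C. By chip, 4 of 9 probe sets were higher on chip A, where 9.09% of all probe sets were, 4 of 5 on chip B, where 9.60% were, and 3 of 5 on chip C, where 3.40% were. The median log2 difference of the 19 probe sets was 0.86, against 0.05 over all probe sets. Differences throughout are the GFP-positive mean less the GFP-negative mean of log2(intensity + 16), so that changes in dim probe sets come out too small. By gene, 7 of 9 had a probe set that rose (Cldn5, Ocln, Tjp1, F11r, Jam2, Esam and Cgn), Cldn3 had 1 that fell, and Cldn1 had neither. All 11 higher probe sets had GFP-positive arrays entirely above the GFP-negative ones, a pattern found at 21.3% of all probe sets, and the 1 lower probe set had them entirely below, as 17.2% of all probe sets on its chip, A, did. In sorted bulk RNA a larger share of expressing cells and more RNA per cell cannot be told apart.

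**Figure D1:**
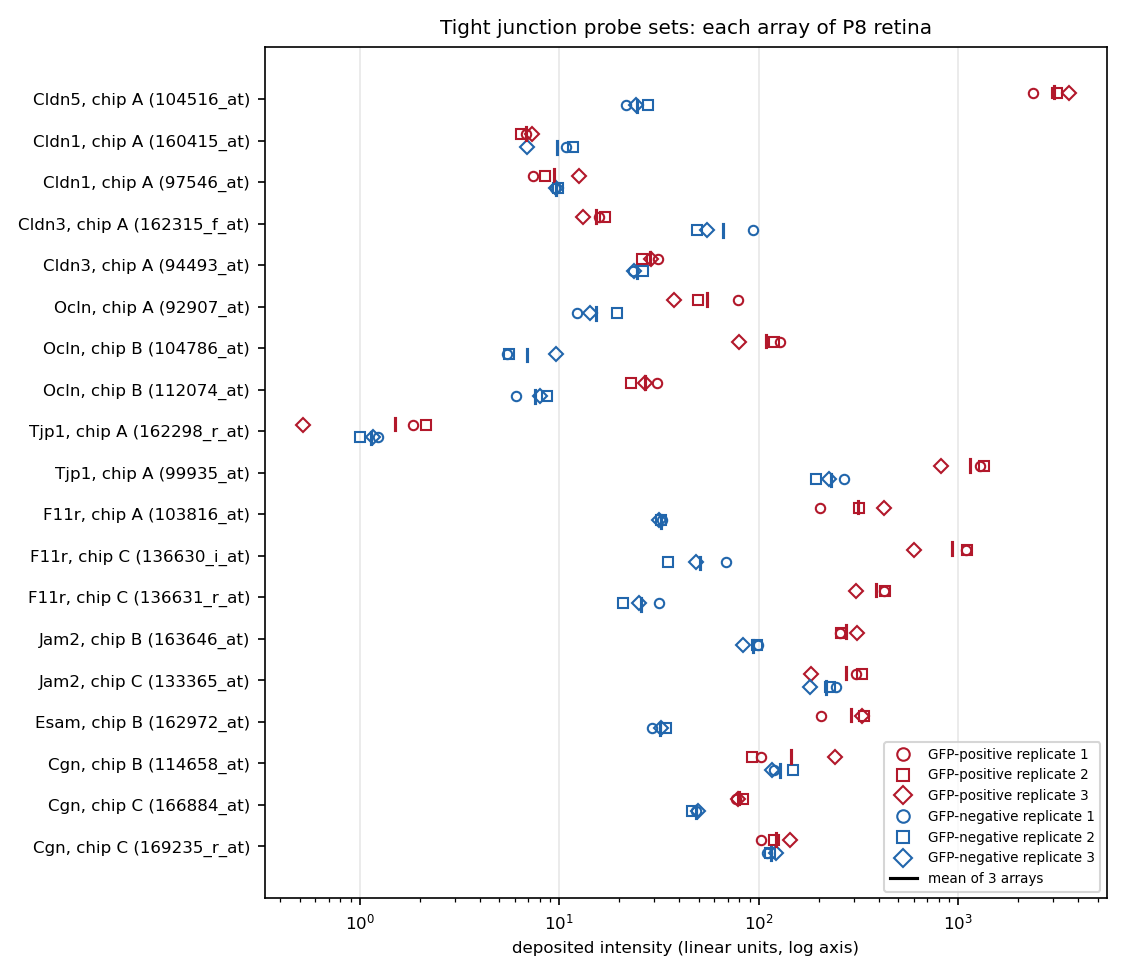
Deposited intensity (horizontal log axis, linear units) of each of the 19 tight junction probe sets on every array, with GFP-positive arrays in red, GFP-negative arrays in blue, a marker shape for each replicate number and a short vertical bar at the mean of 3 arrays. The populations are farthest apart for Cldn5, they do not overlap at 11 probe sets that are higher and 1 that is lower in GFP-positive cells, and levels of different probe sets are not comparable.

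Among the claudins, Cldn5, the main claudin of brain and retinal endothelium, was measured by 1 probe set (104516_at, chip A). It read 2357, 3126 and 3578 units on the GFP-positive arrays and 21.5, 27.9 and 24.3 on the GFP-negative arrays. Every GFP-positive array thus lay far above every GFP-negative one, and replicate 3 was the highest. The ratio of the mean intensities was 123, and the log2 difference was 6.21 (SE 0.16, n = 3 arrays each, adjusted p = 2.68e-05, limma). It ranked 1 among all probe sets of chip A from the highest, and was 6.07 without GFP-positive replicate 3.

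Cldn3, a claudin best known from epithelia, had 2 probe sets on chip A with different calls. The first (162315_f_at) read 15.9, 17.0 and 13.2 in GFP-positive and 94.0, 49.3 and 55.4 in GFP-negative cells. All GFP-positive arrays lay below all GFP-negative ones, and expression at this probe set fell by 1.35 on the log2 scale (SE 0.20, adjusted p = 0.00711, limma), with a call that held without replicate 3 (adjusted p = 0.0131). The suffix _f marks a probe set whose probes can match a family of similar sequences. The second (94493_at) read 31.1, 26.0 and 28.8 against 23.3, 26.4 and 23.8, with overlapping populations and a difference of 0.14 (SE 0.08, adjusted p = 0.287, limma).

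Cldn1, another strand-forming claudin of epithelia, was dim at both of its probe sets. The first (160415_at) read 6.79, 6.44 and 7.34 in GFP-positive and 10.8, 11.7 and 6.88 in GFP-negative cells (-0.17, SE 0.09, adjusted p = 0.288, limma). At the second (97546_at) the readings were 7.41, 8.48 and 12.5 against 9.55, 9.81 and 9.61 (-0.02, SE 0.09, adjusted p = 0.937, limma). The populations overlapped at both, and all readings lay under the array medians of chip A, which were 43.3 to 44.5.

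Probe sets of the tight junction genes differed in direction, so the bases before the transcription start are shown for 3 genes. They are Cldn5, which rose most, F11r, which rose at all its probe sets, and Cldn3, the 1 gene with a probe set that fell. The other Cldn3 probe set did not pass, so the direction of Cldn3 itself is not settled. Each run holds the 250 bases upstream of the start on the gene's strand, which is the plus strand for all 3 genes (RefSeq, GRCm38.p6: Cldn5 chr16:18776597-18776846, F11r chr1:171437311-171437560, Cldn3 chr5:134985964-134986213). Capitals mark matches on either strand to GGAA, the core of ETS factor sites, and to ATTGG, the inverted CCAAT box. ACAAAG, a SOX and TCF/LEF core, and GTAAACA, a forkhead core, were also searched on both strands.
Cldn5: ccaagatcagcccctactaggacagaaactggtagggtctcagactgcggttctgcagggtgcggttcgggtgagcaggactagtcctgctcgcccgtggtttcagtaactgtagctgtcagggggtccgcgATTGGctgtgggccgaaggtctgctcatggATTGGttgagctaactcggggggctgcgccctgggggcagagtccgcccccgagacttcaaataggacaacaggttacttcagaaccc
F11r: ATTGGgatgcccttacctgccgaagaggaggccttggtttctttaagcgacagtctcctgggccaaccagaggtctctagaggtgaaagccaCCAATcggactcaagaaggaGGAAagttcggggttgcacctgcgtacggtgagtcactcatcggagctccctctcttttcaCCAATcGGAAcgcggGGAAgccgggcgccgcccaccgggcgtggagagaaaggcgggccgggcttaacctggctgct
Cldn3: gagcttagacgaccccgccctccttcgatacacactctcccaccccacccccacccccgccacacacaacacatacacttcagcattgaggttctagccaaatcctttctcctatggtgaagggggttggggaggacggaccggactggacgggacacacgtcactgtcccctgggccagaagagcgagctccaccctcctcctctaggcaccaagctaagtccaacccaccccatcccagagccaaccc

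The Cldn5 window held 2 ATTGG matches and 0 GGAA matches. The F11r window held 3 of each, and the Cldn3 window had no match to any of the 4 motifs. Over 32851 promoter windows of the same length, 93.4% held GGAA, 33.8% ATTGG, 16.5% ACAAAG and 3.17% GTAAACA. RefSeq windows were matched for 7 of the 9 genes, in 8 windows since Ocln has 2, of which 6 held GGAA, 4 ATTGG, 1 ACAAAG and 0 GTAAACA. No match overlapped a match to another motif in these 8 windows. A match is a string of letters and not a measured binding site.

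Ocln, which encodes occludin, rose at all 3 of its probe sets. The widest separation was on chip B (104786_at), at 128, 119 and 79.2 in GFP-positive against 5.49, 5.59 and 9.60 in GFP-negative cells. The populations lay far apart there, with GFP-positive replicate 3 the lowest of its population, and the log2 difference was 2.43 (SE 0.18, adjusted p = 0.000212, limma). The other chip B probe set (112074_at) was dimmer, at 30.9, 23.0 and 26.9 against 6.09, 8.69 and 7.97, and differed by 0.86 (SE 0.10, adjusted p = 0.00185, limma). On chip A (92907_at) Ocln read 78.4, 49.4 and 37.7 against 12.2, 19.6 and 14.3, again without overlap. Its difference of 1.15 (SE 0.22, adjusted p = 0.0170, limma) lost its call when the first GFP-negative array was left out (adjusted p = 0.0712) and when the third was (adjusted p = 0.0726).

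F11r, which encodes JAM-A, a homophilic adhesion molecule found in endothelium, epithelium, platelets and leukocytes, also rose at all 3 probe sets. On chip C the first (136630_i_at) read 1092, 1109 and 601 against 68.7, 35.2 and 48.4, a log2 difference of 3.81 (SE 0.29, adjusted p = 0.00103, limma) that ranked 5 from the highest among the 11868 probe sets of the chip. The second (136631_r_at), annotated to the same sequence record as the first, read 424, 430.1 and 306 against 31.5, 20.8 and 25.2 and differed by 3.26 (SE 0.16, adjusted p = 0.000206, limma), which ranked 13. These 2 are therefore not independent of each other, and their differences were 0.55 apart. On chip A (103816_at) the readings were 203, 318 and 424 against 32.8, 32.2 and 31.7 (2.72, SE 0.25, adjusted p = 0.00108, limma). GFP-positive replicate 3 was thus the highest of its population on chip A and the lowest on chip C, and no GFP-positive array overlapped a GFP-negative one on either chip.

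Jam2, which encodes JAM-B, a relative enriched in endothelium, gave different calls on the 2 chips that held it. On chip B (163646_at) it read 256, 258 and 310.2 against 98.7, 98.6 and 83.2, and rose by 1.41 (SE 0.12, adjusted p = 0.000349, limma). On chip C (133365_at) it was 306, 331 and 183 against 245, 228 and 180.1. GFP-positive replicate 3 there fell among the GFP-negative arrays, and the difference of 0.28 (SE 0.23, adjusted p = 0.536, limma) did not pass. Without that array it was 0.53 and passed (adjusted p = 0.0346, limma). In that fit 1559 of all 11868 probe sets of chip C were higher, against 403 with all arrays.

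Esam, which encodes an endothelial adhesion molecule also present on platelets, had 1 probe set (162972_at, chip B). It read 204, 339 and 331 in GFP-positive and 29.2, 34.2 and 32.2 in GFP-negative cells. The populations were widely separated, with GFP-positive replicate 1 the lowest of its group, and the log2 difference was 2.65 (SE 0.19, adjusted p = 0.000221, limma).

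Because F11r and Esam are also made by blood cells, markers of those cells were measured on the same arrays. None of 7 platelet markers passed with all arrays, and the sum of the 4 on chip A was 193 to 244 on GFP-positive and 239.9 to 260.3 on GFP-negative arrays. The 2 on chip B summed to 105 to 1493 against 185 to 308, and the 1 on chip C read 69.0 to 98.0 against 51.8 to 57.6. The upper value on chip B came from Treml1, which read 1476 on GFP-positive replicate 3 and 85.4 and 95.4 on the other two. Without that array 3 of the 7 passed, Treml1 (-1.07, adjusted p = 0.0129) and Pf4 (-0.41, adjusted p = 0.0177) lower and Itga2b (0.48, adjusted p = 0.0433) higher (limma). Of 12 microglia and leukocyte markers 2 rose, where 9.42% of all genes did, Laptm5 at 155 ± 27.0 against 41.5 ± 1.77 and Fcer1g at 219 ± 130.5 against 59.4 ± 1.75 (mean ± SD, n = 3 arrays each). Over all 21 probe sets of the 12 genes 4 were higher and none was lower, where 7.42% and 8.86% of all probe sets were. Fcer1g lost its call in 4 of the 6 fits that left out 1 array, and Laptm5 in none. The probe sets that gave the Laptm5 and Fcer1g values can match a sequence family. Ptprc, the pan-leukocyte antigen CD45, was 40.1 ± 14.6 against 38.0 ± 3.65 (0.03, or -0.18 without GFP-positive replicate 3). The sum of the 12 was 698, 870.2 and 1606 on the GFP-positive arrays against 503 to 558 on the GFP-negative ones. The highest sum held Csf1r, a microglia receptor gene, at 930 on GFP-positive replicate 3 against 37.3 and 41.2 on the other two, and without that array Csf1r was lower (-1.13, adjusted p = 0.00108, limma). The part of either marker list in the F11r and Esam differences was not tested.

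On the cytoplasmic side, Tjp1, which encodes the scaffold ZO-1, was bright in both populations. Its main probe set (99935_at, chip A) read 1281, 1348 and 823 against 268, 194 and 226. Even the lowest GFP-positive array, replicate 3, lay above all GFP-negative ones, and the log2 difference was 2.23 (SE 0.22, adjusted p = 0.00140, limma). The other Tjp1 probe set (162298_r_at, chip A) read 1.86, 2.15 and 0.52 against 1.23, 1.00 and 1.17, with a difference of 0.03 (SE 0.07, adjusted p = 0.820, limma). These readings are far under the array medians, and the populations overlapped.

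Cgn, which encodes the plaque protein cingulin, rose at 1 of 3 probe sets. The one that passed (166884_at, chip C) read 77.4, 83.3 and 78.4 against 48.7, 46.2 and 49.8, a tight pair of groups that differed by 0.58 (SE 0.06, adjusted p = 0.00398, limma). The other chip C probe set (169235_r_at) read 103, 119 and 143 against 110.0, 114 and 121.5 (0.06, SE 0.12, adjusted p = 0.797, limma; -0.04 without GFP-positive replicate 3). On chip B (114658_at) the readings were 103, 92.6 and 242 against 119, 149 and 116 (0.06, SE 0.33, adjusted p = 0.912, limma). The high reading was replicate 3, without which the chip B difference was -0.33 (adjusted p = 0.116).

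Ocln, Cldn3 and Cgn are also made by epithelia, including the pigment epithelium next to the retina. Of 12 markers of pigment and other epithelium 1 passed as higher, near the 9.42% of all genes that did. It was Dct, a melanin enzyme, at 229 ± 82.7 against 85.0 ± 9.25, which lost its call without any 1 of the GFP-negative arrays (adjusted p up to 0.0636, limma). Epcam was 9.86 ± 1.19 against 11.4 ± 2.59 and Cdh1, E-cadherin, 47.2 ± 7.80 against 53.8 ± 7.03. With all arrays only these and Tyr (15.1 ± 0.12 against 19.2 ± 2.19) read lower on average, without passing. All others of the 12 read higher, such as Pmel at 63.9 ± 6.18 against 53.4 ± 3.08, which did not pass. The median log2 difference of the 12 was 0.12, against 0.04 over all genes. The sum of the 11 on chip A was 624 to 783 on GFP-positive and 505 to 556 on GFP-negative arrays, and its part in the results was not tested.

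**Figure D2:**
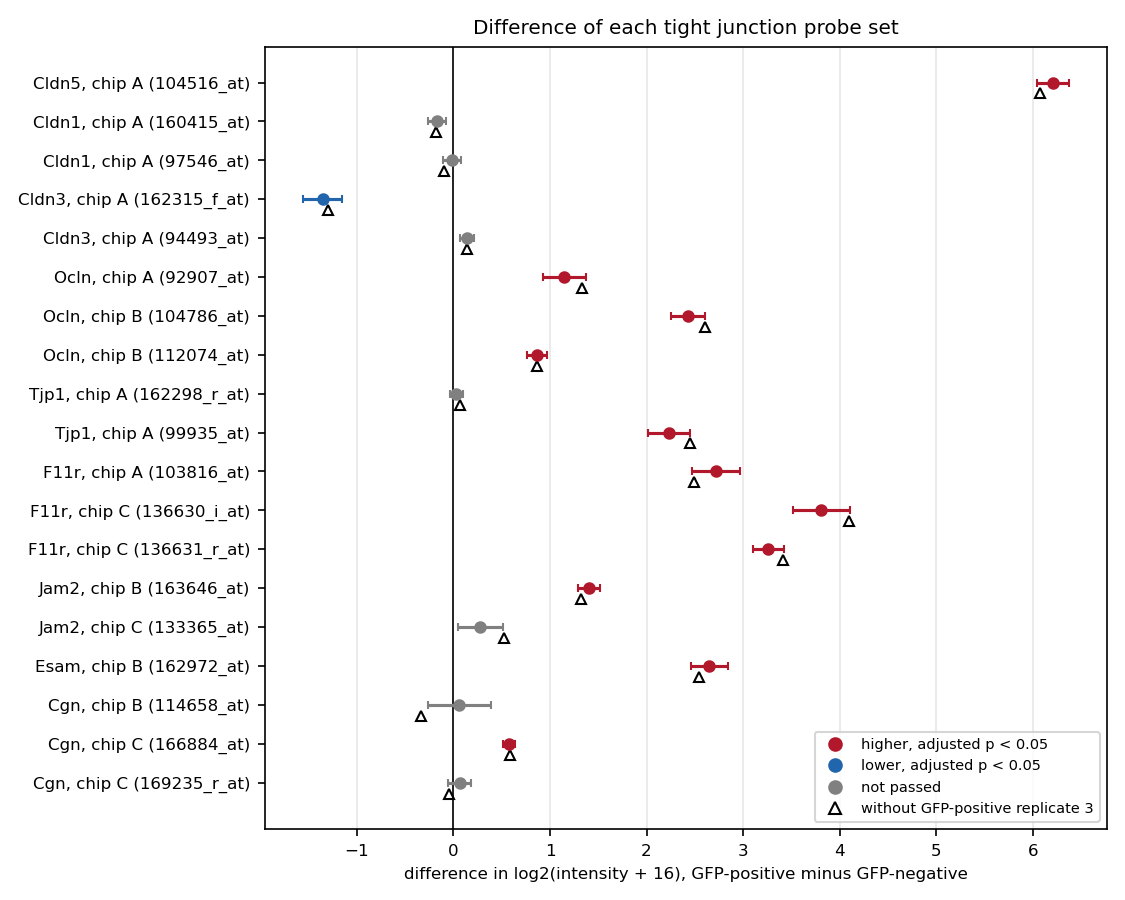
Log2 difference (GFP-positive minus GFP-negative) of each tight junction probe set with its SE, over 3 arrays per population, coloured by call, with a triangle for the value without GFP-positive replicate 3. Cldn5 lies at 6.21 and the Cldn3 probe set that fell at -1.35; the triangles leave every call in place except that Jam2 on chip C passes at 0.53, and they cross 0 for 2 Cgn probe sets.

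Ordered by log2 difference on chip A, Cldn5 stood above F11r by 3.49, F11r above Tjp1 by 0.49 and Tjp1 above Ocln by 1.08. Only the step from F11r to Tjp1 among these was within 2 combined SEs. Combined SEs treat the differences as independent, although both came from the same arrays, so they are a rough guide and no test of the order. On chip B, Esam and Ocln (104786_at) were within 2 combined SEs of each other (0.22 apart), and Jam2 followed 1.02 lower. The order of Esam and Ocln, and of F11r and Tjp1 on chip A, changed with the pseudocount, the constant added to each intensity. With a pseudocount of 1, Ocln stood at 3.80 (SE 0.26) and Esam at 3.12 (SE 0.22). F11r then stood at 3.18 (SE 0.26) and Tjp1 at 2.30 (SE 0.23). With a pseudocount of 64, Ocln was 1.27 and Esam 1.87, and F11r was 1.93 and Tjp1 2.03. The order within each pair is thus not settled. On chip C both F11r probe sets stood above Cgn (166884_at), the lower of them by 2.69. GFP-positive replicate 3 gave the lowest reading of its population at 8 of the 19 probe sets and the highest at 7. Among the 11 that rose it was lowest at 5 and highest at 3.

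**Figure D3:**
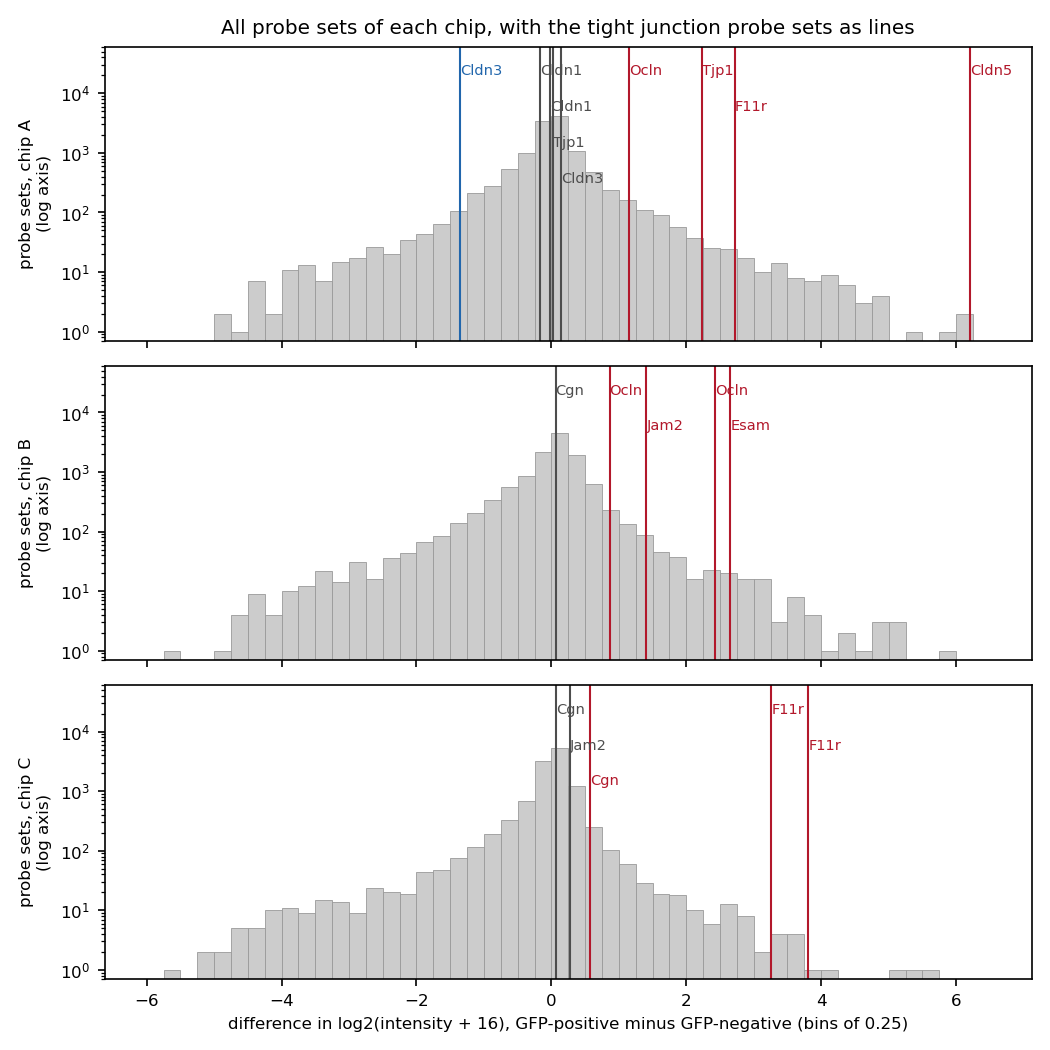
Number of probe sets (vertical log axis) by log2 difference, GFP-positive minus GFP-negative, for all probe sets of chips A, B and C, with each tight junction probe set as a labelled line (red higher, blue lower, grey not passed). Cldn5 lies at the right end on chip A and F11r near the right end on chip C, whereas Cldn1, Cgn on chip B and the dim Tjp1 probe set lie in the central peak.

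The genes whose array profiles were nearest to those of the tight junction genes were found by the root mean square distance between log2 profiles over the 6 arrays of a chip, each centred on its own mean. Where the populations differ widely, this distance depends mostly on the size of that difference. For Cldn5 the nearest were Cd93 (0.25), Eng (0.26) and Cdh5 (0.53), all of them endothelial surface proteins. These also ranked 2, 3 and 4 by log2 difference on chip A, after Cldn5, so their nearness largely restates that order. Nearest to Ocln on chip B were Tgfbr2 (0.13), Prex2 (0.13) and Ppp1r16b (0.14), and nearest to Esam were Exoc3l (0.14), Trp53i11 (0.16) and Nrros (0.21). Tjp1 had Rhob (0.07), Maoa (0.08) and H2-D1 (0.10), and F11r on chip C had Nostrin (0.20), Sting1 (0.31) and N4bp3 (0.31). The H2-D1 and N4bp3 probe sets can match a sequence family. For the Cldn3 probe set that fell the nearest were Nrcam (0.05), Trp53inp2 (0.08) and Gpld1 (0.08).

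The rest of the tight junction machinery was divided. Of 55 other measured genes, each by 1 probe set, 14 rose and 6 fell, with a median log2 difference of 0.08. Over all 15964 genes measured in that way 9.42% were higher and 11.2% lower, with a median of 0.04. Of these calls, 7 of the 14 higher and 5 of the 6 lower ones held under all 15 alternative settings that could be run for them. Leaving out GFP-positive replicate 1 or 2 gave 9 genes that rose, and leaving out GFP-negative replicate 1 or 2 gave 7. Leaving out GFP-positive replicate 3 gave 9 genes that fell.

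Among the plaque and signalling genes 6 of 21 rose and 1 fell, or 2 fell without GFP-positive replicate 1 or 3. Amotl1, an angiomotin relative that binds junctional scaffolds, read 369, 398 and 223 against 93.3, 65.1 and 55.0 and rose by 1.97 (SE 0.25, adjusted p = 0.00235, limma). Vasp, an actin regulator at junctions, rose by 1.79 (SE 0.24) and Cgnl1, the cingulin paralog, by 1.39 (SE 0.20), at 508 ± 60.0 against 188 ± 56.8, although the other Cgnl1 probe sets did not pass. Cask, a membrane-associated guanylate kinase best known from synapses, was 181 ± 47.3 against 578 ± 18.9 (-1.62, SE 0.17, adjusted p = 0.00175, limma), by a probe set that can match a sequence family. Tbcd did not pass at 238 ± 18.3 against 249.6 ± 41.5 (-0.06, SE 0.14).

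Among MARVEL and angulin proteins, some of which meet at tricellular contacts, Marveld2 (tricellulin) and Lsr (the first angulin) rose and Ildr2 fell, of 6 measured. Lsr lost its call whenever any 1 GFP-negative array was left out (adjusted p up to 0.0833, limma), which left 1 gene that rose. Marveld2 read 80.3, 129 and 79.8 against 11.8, 12.2 and 14.5, with no overlap and a difference of 1.94 (SE 0.18, adjusted p = 0.000535, limma). Ildr2 was lower on every GFP-positive array, at 110, 101 and 90.5 against 540.5, 381 and 251 (-1.74, SE 0.26, adjusted p = 0.00424, limma). Marveld1 was 211 ± 79.7 against 139 ± 3.68 and did not pass (0.49, SE 0.23).

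Of 14 other claudins 4 rose and 1 fell. Cldn12, an atypical claudin, was 335, 620 and 511 in GFP-positive against 4241, 2744 and 3442 in GFP-negative cells on chip C. The populations were widely apart, and the difference was -2.81 (SE 0.26, adjusted p = 0.00197, limma). The 4 that rose, Cldn10, Cldn13, Cldn15 and Cldn23, all stood on chip B with differences of 0.54, 0.45, 0.38 and 0.36, and each lost its call in 5 of the 6 fits that left out 1 array. Without GFP-positive replicate 3, 3 claudins fell, since Cldn11 (-0.90, adjusted p = 0.00169) and Cldn7 (-0.38, adjusted p = 0.0257) then passed (limma), and Cldn6 and Cldn8 passed as higher. With all arrays 0.54 was thus the highest difference among the other claudins. The Cldn7 probe set can match a sequence family.

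Of the polarity proteins, which place the junction, 2 of 10 rose and 2 fell. With 1 array left out the counts were 0 or 1 that rose and 1 or 2 that fell: Pard6g lost its call in all 6 such fits, Mpp5 in 5 and Prkcz in the 3 that left out a GFP-negative array. Pard6b, an adaptor of atypical protein kinase C, had the largest difference of these, at 24.9, 38.4 and 36.1 against 444, 248 and 312 (-2.81, SE 0.22, adjusted p = 0.000299, limma). Of 4 measured relatives of the junctional adhesion molecules only Jam3, which encodes JAM-C, passed with all arrays, and Cxadr passed as lower without GFP-positive replicate 3 (-0.82, adjusted p = 0.00111, limma). Jam3 was 61.6 ± 4.55 against 193 ± 55.3 and fell by 1.39 (SE 0.19, adjusted p = 0.00511, limma), the direction opposite to that of F11r and of Jam2 on chip B.

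**Figure D4:**
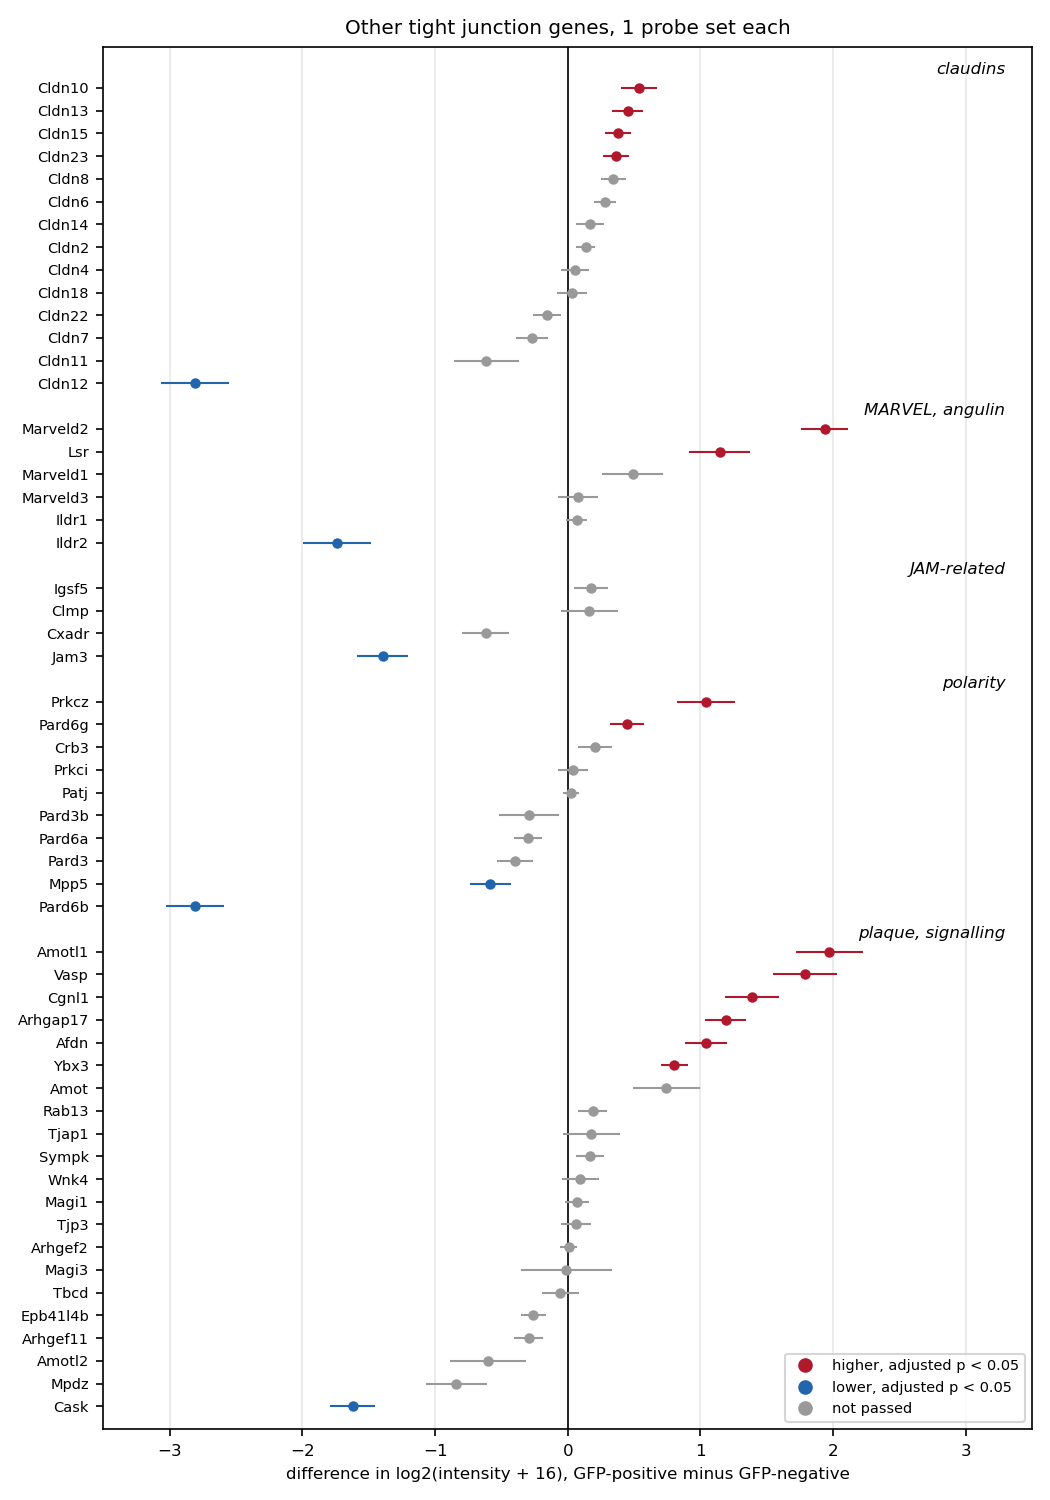
Log2 difference (GFP-positive minus GFP-negative) with its SE for 55 other tight junction genes, 1 probe set each over 3 arrays per population, grouped by role and coloured by call. Amotl1 at 1.97 and Marveld2 at 1.94 are the highest, Cldn12 and Pard6b, both at -2.81, are the lowest, and the 4 claudins that passed upwards lie between 0.36 and 0.54.

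Neighbouring junction genes and regulators of the barrier were measured on the same arrays. Of 13 adherens and endothelial junction genes 4 rose and 2 fell, where 9.42% of all genes were higher and 11.2% lower. The count that fell was 1 when any 1 GFP-negative array or GFP-positive replicate 2 was left out, since Cd99l2 then lost its call, and 3 without GFP-positive replicate 1. The count that rose was 3 when any 1 GFP-negative array was left out and 5 without GFP-positive replicate 3. Cdh5, VE-cadherin, rose by 5.29 (SE 0.29) and the phosphatase gene Ptprb by 2.88 (SE 0.27), while Nectin3 was -2.11 (SE 0.16) and Cd99l2 -0.52 (SE 0.12). Ctnnb1, beta-catenin, did not pass (0.22, SE 0.29, or -0.11 without GFP-positive replicate 3). Of 16 genes tied to induction, maturity or loosening of the barrier 9 rose and 2 fell, against the same shares of all genes. With 1 array left out 8 to 10 rose and 2 fell. Angpt2 was among the 9 that rose (1.08, SE 0.08), so this is not a count of barrier-promoting genes alone. Sox18, an endothelial transcription factor, rose by 3.51 (SE 0.17) and Mfsd2a, a lipid transporter that limits transcytosis, by 3.02 (SE 0.16), whereas Ndp, the ligand Norrin, was -2.30 (SE 0.16) and Vegfa -1.12 (SE 0.14). The Sox18 probe set can match a sequence family. Slc2a1, the glucose transporter GLUT1, did not pass at 149 ± 41.5 against 74.5 ± 24.4 (0.86, SE 0.27), although it passed without GFP-positive replicate 1 (adjusted p = 0.0354, limma).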

How the data were processed

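Endothelial and other retinal cells were profiled on 1-colour arrays of 3 chips. The authors deposited 1 linear intensity for each probe set. Their probe summary, background correction and normalization (not given in the sources used here) could change any difference. Array medians were 43.3 to 44.5 on chip A, 40.7 to 44.6 on B and 32.5 to 34.4 on C, so the deposited scaling was kept. Detection calls were not used here, so a dim reading may be background.

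Gene names came from GEO's annotation of each chip. Each chip was fitted alone over all its probe sets, 12422, 12411 and 11868, on log2 of intensity plus 16 with limma 3.58.1 in R 4.3.3 (lmFit and eBayes, two-sided, Benjamini-Hochberg within the chip, threshold 0.05), with no filter and no replicate block, and tested on simulated data. In lists a gene was measured by its brightest probe set on the first chip holding it. The genes and lists were chosen with earlier results of these data known. Named genes were all probe sets of the 9 genes, up to 4 called genes in each direction and the 2 brightest that did not pass among other tight junction genes, up to 2 and 1 in the other junction and barrier lists, the 3 nearest profiles, and Tek; genes named beyond these were chosen after their values were seen. The number of arrays limits the precision. Figures used matplotlib 3.10.9.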

Additional observations from a re-analysis of the deposited data

How the results depend on the processing

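Every difference was refitted with quantile-normalized or median-centred values, with a pseudocount of 1 or 64, and on probe sets reaching 50 units only. Further refits used limma-trend with robust eBayes, blocked on replicate number, adjusted p over the 3 chips together, called at an adjusted p under 0.01, or left out 1 array. Of 280 values from these settings for the 19 probe sets, 272 kept their sign and their side of the threshold. Limma-trend, the replicate block, the adjustment over 3 chips and the threshold of 0.01 left each difference itself unchanged. Under those settings only the call could change. The count of probe sets that rose stayed between 10 and 12, and the count that fell was 1 throughout. With the replicate block the counts were 11 and 1 for these probe sets, and 10 and 7 for the other tight junction genes. Replicates with the same number correlated at -0.368 to 0.292 in their deviations from the group means, over 0.1 in 3 of 9 pairs, so the numbers were not taken to pair the arrays. Those 3 were replicate 1 with 1 on chips A, B and C (0.292, 0.255 and 0.175). The highest pair on each chip was GFP-positive replicate 3 with GFP-negative replicate 2 (0.379, 0.411 and 0.445). Whether arrays shared a batch under other numbers was not tested. The other tight junction genes that rose numbered 7 at an adjusted p under 0.01 and from 7 to 13 with 1 array left out, and those that fell numbered 11 when every probe set was counted. With arrays left out, Cldn1 (97546_at) ran from -0.10 to 0.043 (0.043 without GFP-positive replicate 1 and 0.010 without replicate 2), Cgn on chip B from -0.33 to 0.29 and Cgn (169235_r_at) on chip C from -0.044 (without GFP-positive replicate 3) to 0.16; the cause was not tested. The brightness filter left no value for 5 dim probe sets, and dim readings limit what can be said of Cldn1 and of the weak Tjp1 probe set.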
